A study of Mus musculus with 8 samples.

Results

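The genes described are the receptors and ligands of 3 guidance systems: the Eph receptors and their ephrins, the ROBO receptors and their SLIT ligands, and the receptors DCC, neogenin and UNC5 with the netrins. They were taken by symbol from a table of 17631 genes, which gave 37 genes, of which 20 encode receptors and 17 encode ligands. These are 11 Eph receptors, 8 ephrins, 3 ROBO receptors, 3 SLIT ligands, 6 netrin receptors and 6 netrins. Epha6, Epha8, Epha10 and Robo3 were not analysed here. The RNA was that of the apical portion, where the root grows, of lower first molars of C57BL/6 mice at postnatal day 7.5. The mutant group, Gli1-CreERT2;Runx2fl/fl, carried floxed Runx2 alleles and a recombinase that is made where the hedgehog target Gli1 is expressed and is switched on by tamoxifen. The control group, Runx2fl/fl, carried the same floxed alleles without the recombinase. Both groups had 4 libraries, and all mice had received tamoxifen at postnatal day 3.5, in a dose of 1.5 mg for each 10 g of weight. Only the mutant group carried the driver, so that its effects and those of Runx2 loss cannot be told apart, and the samples also held cells in which the driver is silent. The question is which transcripts of the growing root differ once Gli1-expressing cells lose Runx2, the transcription factor on which osteoblast formation depends.

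Guidance receptors were first described on growing axons, and the same proteins steer migrating cells, set tissue boundaries and pattern vessels. Ephrins are held in the cell membrane, by a lipid anchor in the A class and by a transmembrane segment in the B class, so that Eph signalling needs contact between cells and can run into both of them. SLITs and most netrins are secreted. SLITs mostly repel through ROBO receptors, while netrins can attract cells through DCC and repel them through UNC5. In mouse bone, signalling between ephrin-B2 on osteoclasts and EphB4 on osteoblasts is a known link between bone resorption and bone formation.

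All group means and p-values of single genes are those of the authors' deposited table, whose means are normalised signal on a linear scale. Log2 ratios were computed from its ratio of mutant over control. The table gives no value per library, so no spread between libraries, depth per library or standard error can be stated for any gene. Whether the signal was divided by gene length is not given in the sources used here, and levels are therefore compared between groups and not read as an order of abundance between genes. Sums over marker lists weigh each gene by its signal, so that for ameloblasts they are mostly Amelx and Ambn. The labels do not say whether each library is a separate animal, so that the p-values measure the spread between libraries, which may be in part technical. The targeted gene Runx2 had a mean of 65.1 in mutant molars and 105.5 in control molars in the authors' deposited table (the authors' adjusted p = 0.0646), a value that also counts reads outside the floxed part. Gli1 had 19.9 in mutant molars and 38.8 in control molars (the authors' adjusted p = 0.0228). The Gli1-CreERT2 driver was in the mutant group only, so its own effect on this Gli1 value and that of Runx2 loss cannot be told apart. Tooth markers had signal in both groups, with a Dspp mean of 7360 in mutant molars and 7714 in control molars for odontoblasts. Krt14 had 923.5 in mutant molars and 973.2 in control molars for dental epithelium. The ameloblast marker Amelx had 112174 in mutant molars and 174946 in control molars. Whether the samples held the apical portion alone was not tested.

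Mutant molars had higher levels of the Eph receptor genes Epha4, Epha7 and Ephb2 and of the ligand gene Slit2, and a lower level of the netrin gene Ntn1. These were the 5 of 37 guidance genes (13.5%) with an adjusted p under 0.05 in the authors' deposited table, against 0.788% of all genes in either direction. None of the 5 calls held when the authors' p-values were recomputed with a table-wide trend on transcript GC content and exonic length subtracted (adjusted p from 0.0955 for Ephb2 to 0.250 for Slit2), while their log2 ratios less that trend kept their direction, from 0.32 to 0.55 for the 4 genes with higher means and -0.80 for Ntn1. As deposited, the 4 that rose stand against 0.471% of all genes called higher, and the 1 that fell against 0.318% called lower. The authors' adjusted p of the 5 ran from 0.0391 for Epha4 to 0.0489 for Slit2. By p-value Epha4 ranked 44, Ephb2 74, Epha7 83, Ntn1 89 and Slit2 137 among all genes, of which 139 passed. At an unadjusted p under 0.05 the guidance genes numbered 12 (32.4%), 8 with a higher and 4 with a lower mean in the mutant, against 19.3% of all genes (9.89% higher and 9.4% lower). At an adjusted p under 0.1 they numbered 8, 5 higher and 3 lower, against 3.64% of all genes, 2.01% higher and 1.63% lower, the added genes being Unc5c, Epha3 and Slit3. The median size of the log2 ratio, regardless of direction, was 0.17 for the 37 and 0.17 for all genes. A size over 0.3 was found for 14 of the 37 (37.8%), against 27.6% of all genes. Among all genes with a mean of at least 1 in either group, which 35 of the 37 reach, the share was 20.9% and the median size 0.15. In whole tissue of this kind, more or fewer cells that express a gene and more or less RNA per cell cannot be told apart.

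**Figure D1:**
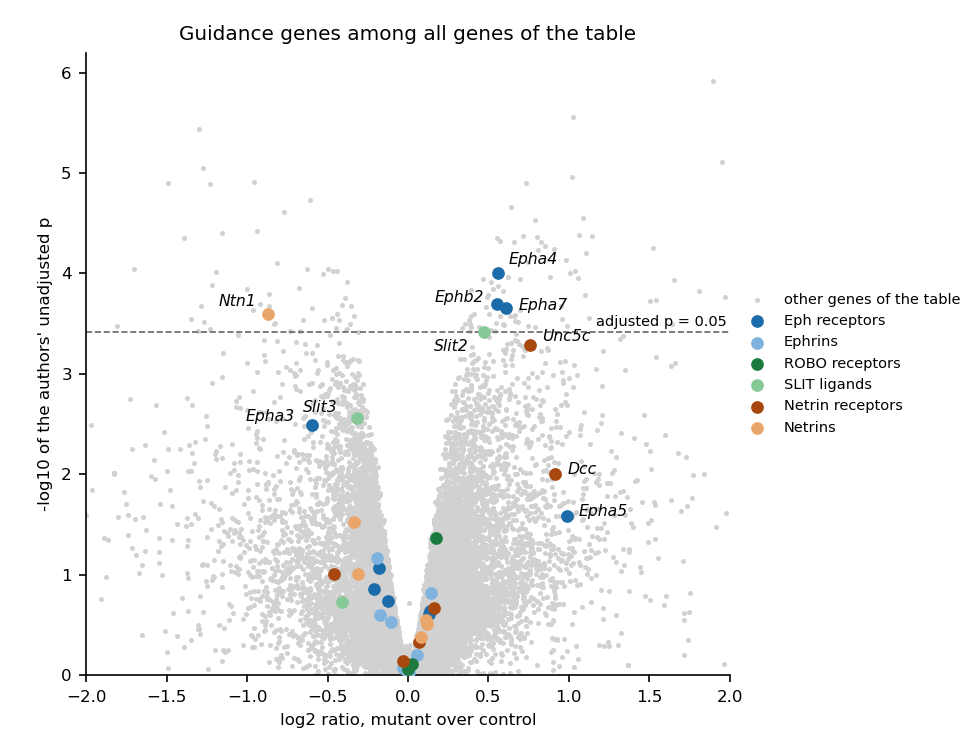
Log2 ratio of mutant over control (x axis) against -log10 of the authors' unadjusted p (y axis) for all genes in grey and the 37 guidance genes coloured by family, with 54 genes beyond a log2 ratio of 2 in either direction not drawn. Above the dashed line at the adjusted p of 0.05 lie Epha4, Ephb2, Epha7 and Slit2 on the higher side and Ntn1 on the lower side, and Unc5c lies just under it.

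Before the single families, the start regions of the 4 genes that rose are shown, since these genes moved in the same direction and transcription starts there. They are RefSeq sequences on GRCm38.p6, the assembly that mm10 names, written 5′ to 3′ on the gene's strand and ending before the first base of the gene, with each CpG in capitals.
Epha4 (chr1:77515089-77515338, minus strand): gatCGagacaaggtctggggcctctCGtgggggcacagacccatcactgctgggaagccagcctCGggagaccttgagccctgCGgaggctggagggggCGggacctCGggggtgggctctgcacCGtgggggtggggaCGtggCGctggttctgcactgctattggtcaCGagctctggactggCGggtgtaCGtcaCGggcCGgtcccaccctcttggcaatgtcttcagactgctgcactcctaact
Epha7 (chr4:28812881-28813130, plus strand): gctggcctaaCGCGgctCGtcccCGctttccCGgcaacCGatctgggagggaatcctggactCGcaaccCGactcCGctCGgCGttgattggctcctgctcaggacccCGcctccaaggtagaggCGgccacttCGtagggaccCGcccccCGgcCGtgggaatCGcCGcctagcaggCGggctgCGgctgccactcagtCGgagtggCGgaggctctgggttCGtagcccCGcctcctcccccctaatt
Ephb2 (chr4:136836013-136836262, minus strand): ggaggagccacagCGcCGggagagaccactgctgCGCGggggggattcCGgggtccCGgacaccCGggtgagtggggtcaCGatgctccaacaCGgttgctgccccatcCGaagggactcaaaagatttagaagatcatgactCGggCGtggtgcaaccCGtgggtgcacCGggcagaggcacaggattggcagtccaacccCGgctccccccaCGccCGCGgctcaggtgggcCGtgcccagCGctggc
Slit2 (chr5:47982905-47983137, plus strand): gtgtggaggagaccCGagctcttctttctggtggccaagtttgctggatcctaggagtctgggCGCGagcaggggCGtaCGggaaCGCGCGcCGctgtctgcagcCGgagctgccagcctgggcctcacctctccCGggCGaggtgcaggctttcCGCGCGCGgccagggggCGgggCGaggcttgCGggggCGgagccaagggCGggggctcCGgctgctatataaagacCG
The region before Epha4 holds 14 CpGs in 250 bases, that before Epha7 25, that before Ephb2 20, and that before Slit2 23 in 233 bases. Promoters were found for 32 of the 37 members by symbol, 37 start sites in all, and that of Ntn1 was not analysed here. Over the 250 bases before the start, the members' median was 18 CpGs and 65.6% GC, and that of all 32851 promoters in the RefSeq table was 6 CpGs and 52.4% GC. Those promoters belong to 27025 genes, whether measured here or not, so the members are not set against measured genes alone. The core letters bound by RUNX proteins, TGTGGT or ACCACA on the other strand, stood in 4 of the members' 37 promoters (10.8%) and in 14.0% of all promoters. The 4 were a start site each of Efna3, Efna4, Ephb1 and Unc5c, none of which passed the test. None of the 4 regions printed holds these letters, which says only that they are absent from this window. The GLI core GACCACCCA, or TGGGTGGTC on the other strand, was in none of the members' promoters and in 0.225% of all.

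Among the Eph receptors, the 3 genes that rose as deposited had similar sizes of change, and none of them passed with the GC and length trend subtracted. Epha4 encodes a receptor that binds ephrins of both classes (chromosome 1, 77367185 to 77515088, minus strand, GENCODE M21 on GRCm38, protein-coding). Its mean was 30.6 in mutant molars and 20.7 in control molars in the authors' deposited table, which is 1.48-fold higher, with a log2 ratio of 0.56 and an adjusted p of 0.0391. Epha7 encodes an A-class receptor (chromosome 4, 28813131 to 28967499, plus strand). Its mean was 18.2 in mutant molars and 11.9 in control molars in the authors' deposited table, 1.52-fold higher with a log2 ratio of 0.61 (the authors' adjusted p = 0.0466). Ephb2, a B-class receptor gene, lies on the same chromosome (136647539 to 136835988, minus strand). It had 16.7 in mutant molars and 11.4 in control molars in the authors' deposited table, 1.47-fold higher with a log2 ratio of 0.56 (the authors' adjusted p = 0.0462). No other gene's exons overlap those of these 3 genes in GENCODE M21.

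Epha3, which encodes a receptor of ephrin-A5, lay on the other side. Its mean was 19.4 in mutant molars and 29.4 in control molars in the authors' deposited table, a log2 ratio of -0.60 that did not pass (the authors' adjusted p = 0.0955). Epha5 had a low signal, with 0.373 in mutant molars and 0.188 in control molars (the authors' adjusted p = 0.200), so that its log2 ratio of 0.99 is that of a level near the lower end of the table. The other 6 Eph receptors had log2 ratios between -0.21 and 0.13. Epha2, a receptor found mostly on epithelial cells, had 48.8 in mutant molars and 55.4 in control molars (the authors' adjusted p = 0.323), and Epha1 had 11.9 in mutant molars and 10.8 in control molars (the authors' adjusted p = 0.509). Ephb1 had 4.69 in mutant molars and 5.44 in control molars, and Ephb3 had 85.5 in mutant molars and 93.3 in control molars. Ephb4, the receptor of veins and of osteoblasts, had 139.6 in mutant molars and 141.4 in control molars (the authors' adjusted p = 0.905). Ephb6, whose kinase domain is inactive, had 24.3 in mutant molars and 22.2 in control molars. Of the 6 A-class receptors 2 were called higher, and their log2 ratios ran from -0.60 to 0.99 with a median of 0.35. Of the 5 B-class receptors 1 was called higher, and theirs ran from -0.21 to 0.56 with a median of -0.02. The log2 ratios of Ephb3 and Ephb4 turn positive when both groups are scaled to the same sum of means.

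None of the 8 ephrin genes passed, and none reached an unadjusted p of 0.05 in the authors' deposited table, against 19.3% of all genes that did. Their log2 ratios ran from -0.19 to 0.14, with a median of -0.02. In the A class, Efna1, an ephrin of vessels and epithelia, had 41.5 in mutant molars and 47.4 in control molars (the authors' adjusted p = 0.294), the lowest p of the family. Efna5 had 33.7 in mutant molars and 30.5 in control molars. Efna2 had 17.5 in mutant molars and 16.8 in control molars, Efna3 12.1 in mutant molars and 13.7 in control molars, and Efna4 14.2 in mutant molars and 14.4 in control molars. For Efna3 and Efna4, antisense genes cover 14.1% and 10.5% of the exonic bases, and with no statement on strand the reads cannot be told apart. In the B class, Efnb1, which is needed for boundaries in the skull and face, had 130.5 in mutant molars and 130.0 in control molars. Efnb2, the ephrin of arteries, had 54.2 in mutant molars and 54.5 in control molars, and Efnb3 had 55.5 in mutant molars and 59.8 in control molars. In the Eph system, the 3 calls were thus receptor genes. A test of receptors against ligands was not possible from group means.

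**Figure D2:**
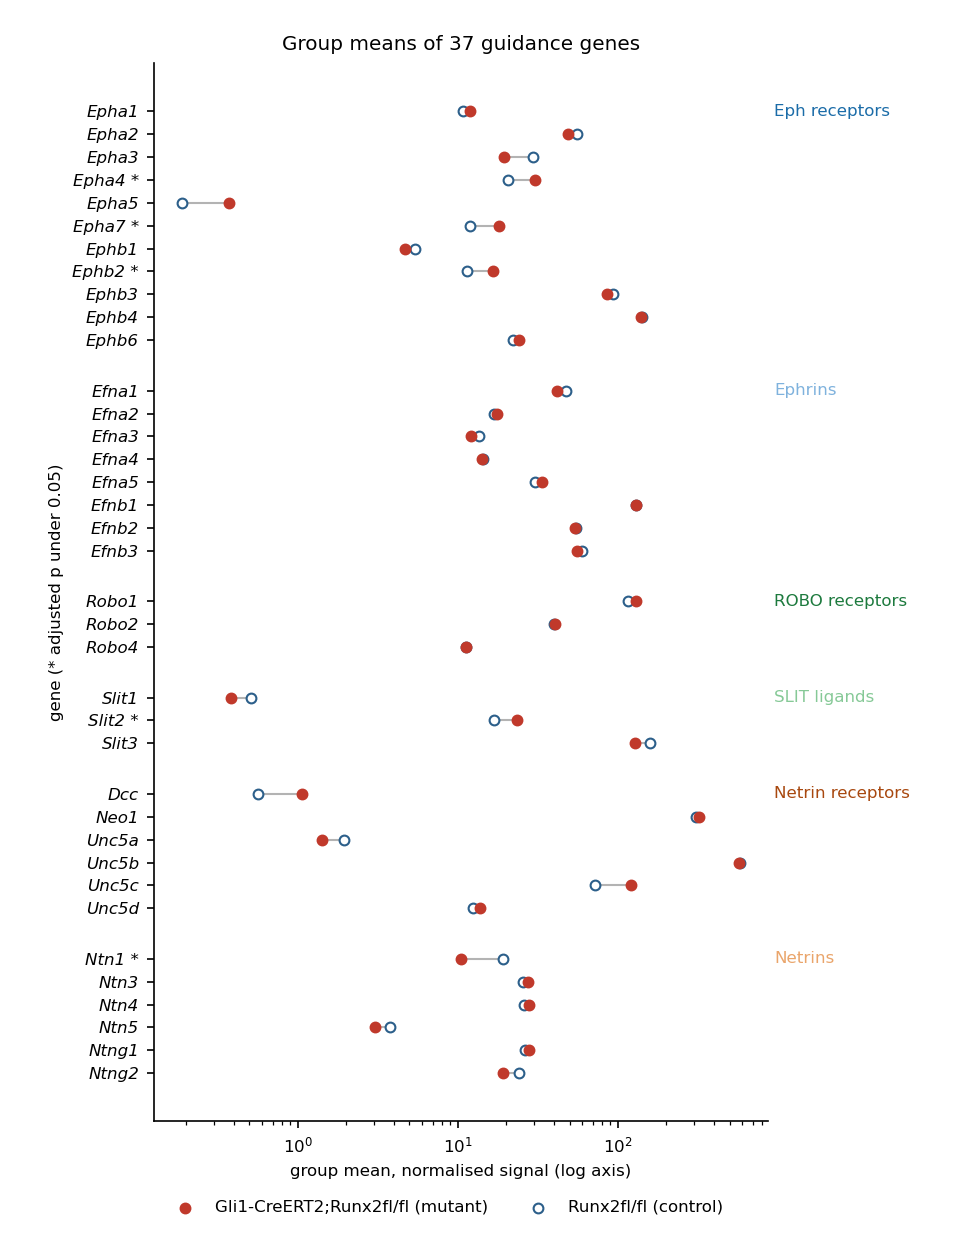
Authors' group means of the 37 guidance genes on a log axis, in filled red for the mutant and open blue for the control, grouped by family, with a star at genes past an adjusted p of 0.05 and no error bars because the table gives none. The ephrin points nearly coincide. Those of Epha4, Epha7, Ephb2, Slit2 and Ntn1 are apart. So are those of Unc5c and Epha3, which did not pass, and of Epha5 and Dcc, both low in signal.

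In the SLIT and ROBO system, 1 ligand gene rose as deposited, though not with the GC and length trend subtracted, and no receptor gene passed. Slit2 (chromosome 5, 47983138 to 48307733, plus strand), a repellent of axons and of several migrating cell types, had a mean of 23.6 in mutant molars and 17.0 in control molars in the authors' deposited table. The difference was 1.39-fold, higher in the mutant, with a log2 ratio of 0.47 and an adjusted p of 0.0489, just inside the threshold. Slit3 (chromosome 11, 35121224 to 35708507), a ligand made in many mesenchymal tissues, had 128.2 in mutant molars and 159.7 in control molars in the authors' deposited table, a log2 ratio of -0.32 that did not pass (the authors' adjusted p = 0.0909). Slit1, mostly a gene of the nervous system, was near the lower end of the table with 0.386 in mutant molars and 0.512 in control molars (the authors' adjusted p = 0.463). The mean of Slit2 was thus higher and that of Slit3 lower in the mutant, and the difference between these effects was not tested. With Slit1 left out, the family's median log2 ratio moves from -0.32 to 0.08, so that it carries no direction.

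The ROBO receptors differed little. Robo1, the broadly expressed receptor, had 130.0 in mutant molars and 115.1 in control molars in the authors' deposited table, with a log2 ratio of 0.18 and an unadjusted p of 0.0430 that gave an adjusted p of 0.243. Robo2 had 40.7 in mutant molars and 40.0 in control molars (the authors' adjusted p = 0.899). Robo4, a receptor of endothelial cells, had 11.3 in both groups (the authors' adjusted p = 0.948). Endothelial marker genes, which belong beside Robo4, Ephb4, Efnb2 and Unc5b, summed to 367.5 in mutant molars and 336.9 in control molars, with 8 of 10 higher in mutant molars and none past the threshold. Their unadjusted p was under 0.05 for 3 genes, all with higher means.

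Of the netrins, Ntn1 fell as deposited, a call that is also lost with the GC and length trend subtracted. It encodes netrin-1, the secreted cue that guides commissural axons in the spinal cord (chromosome 11, 68209364 to 68400823, minus strand, protein-coding). Its mean was 10.5 in mutant molars and 19.1 in control molars in the authors' deposited table, 1.83-fold lower, with a log2 ratio of -0.87 and an adjusted p of 0.0484. This was the greatest fold among the 5 called members, and the exons of Ntn1 overlap no other gene in GENCODE M21. Ntn4, a netrin of basement membranes that binds laminin, had 28.0 in mutant molars and 25.8 in control molars (the authors' adjusted p = 0.592). Ntn3 had 27.7 in mutant molars and 25.6 in control molars (the authors' adjusted p = 0.564). Ntn5 had 3.03 in mutant molars and 3.76 in control molars (the authors' adjusted p = 0.342), and a gene on the opposite strand covers 23.4% of its exonic bases. The lipid-anchored netrin-G genes, which act on synapses and not through DCC, were Ntng1 with 27.9 in mutant molars and 26.4 in control molars, and Ntng2 with 19.2 in mutant molars and 24.3 in control molars. Ntng2 had a log2 ratio of -0.34 and an adjusted p of 0.208 in the authors' deposited table, and a transcript of the same strand covers 14.0% of its exonic bases.

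No netrin receptor gene passed, although Unc5c came close. Unc5c (chromosome 3, 141465216 to 141834924, plus strand), a repulsive netrin receptor, had a mean of 121.2 in mutant molars and 71.7 in control molars in the authors' deposited table, 1.69-fold higher, with a log2 ratio of 0.76 and an adjusted p of 0.0577. When the p-values were adjusted again over the 14168 genes whose higher mean was at least 1, Unc5c passed (adjusted p = 0.0473, from the authors' p-values). The 5 called members passed there too, with adjusted p-values from 0.0321 to 0.0402, and 1.19% of those genes were called in all. Dcc, the attractive receptor, had a low signal, with 1.07 in mutant molars and 0.569 in control molars (log2 ratio 0.91, the authors' adjusted p = 0.140). Neo1, which encodes the DCC relative neogenin and also binds repulsive guidance molecules, had 321.5 in mutant molars and 306.3 in control molars (the authors' adjusted p = 0.719). Unc5b, a receptor known from vessels, had 567.9 in mutant molars and 580.6 in control molars (the authors' adjusted p = 0.871). Unc5d had 13.9 in mutant molars and 12.4 in control molars, and Unc5a had 1.42 in mutant molars and 1.95 in control molars.

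The called receptor genes were all Eph receptors and all higher in the mutant, and no ROBO or netrin receptor gene was called. The called ligand genes went in both directions. Of the 20 receptor genes 3 were called, all higher, and 13 had a higher mean in the mutant, with a median log2 ratio of 0.10 and a range from -0.60 to 0.99. Of the 17 ligand genes 2 were called, 1 in each direction, and 7 had a higher mean in the mutant, with a median of -0.03 and a range from -0.87 to 0.47. The median of all genes was 0.0033. By family the medians were 0.13 for Eph receptors, -0.02 for ephrins, 0.02 for ROBO receptors, -0.32 for SLITs, 0.12 for netrin receptors and -0.11 for netrins. Rescaling both groups to the same sum of means adds 0.14 to every log2 ratio. It takes the medians of ephrins, netrins and all ligands above 0, and that of all genes to 0.14. The sign of these 3 medians thus depends on the scaling, while in both scalings they lie below the median of all genes. The sums, 955256 in mutant molars and 1050684 in control molars, weigh each gene by its signal. Large parts of them are Amelx (112174 in mutant molars and 174946 in control molars) and Ambn (53601 in mutant molars and 72752 in control molars). The median transcript GC content was 51.6% over the receptor genes and 56.8% over the ligand genes. With the GC and length trend subtracted, 13 of 20 receptor genes and 9 of 17 ligand genes had a log2 ratio above 0. The medians were then 0.07 for all receptors, 0.00058 for all ligands, 0.05 for ephrins and -0.01 for all genes.

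**Figure D3:**
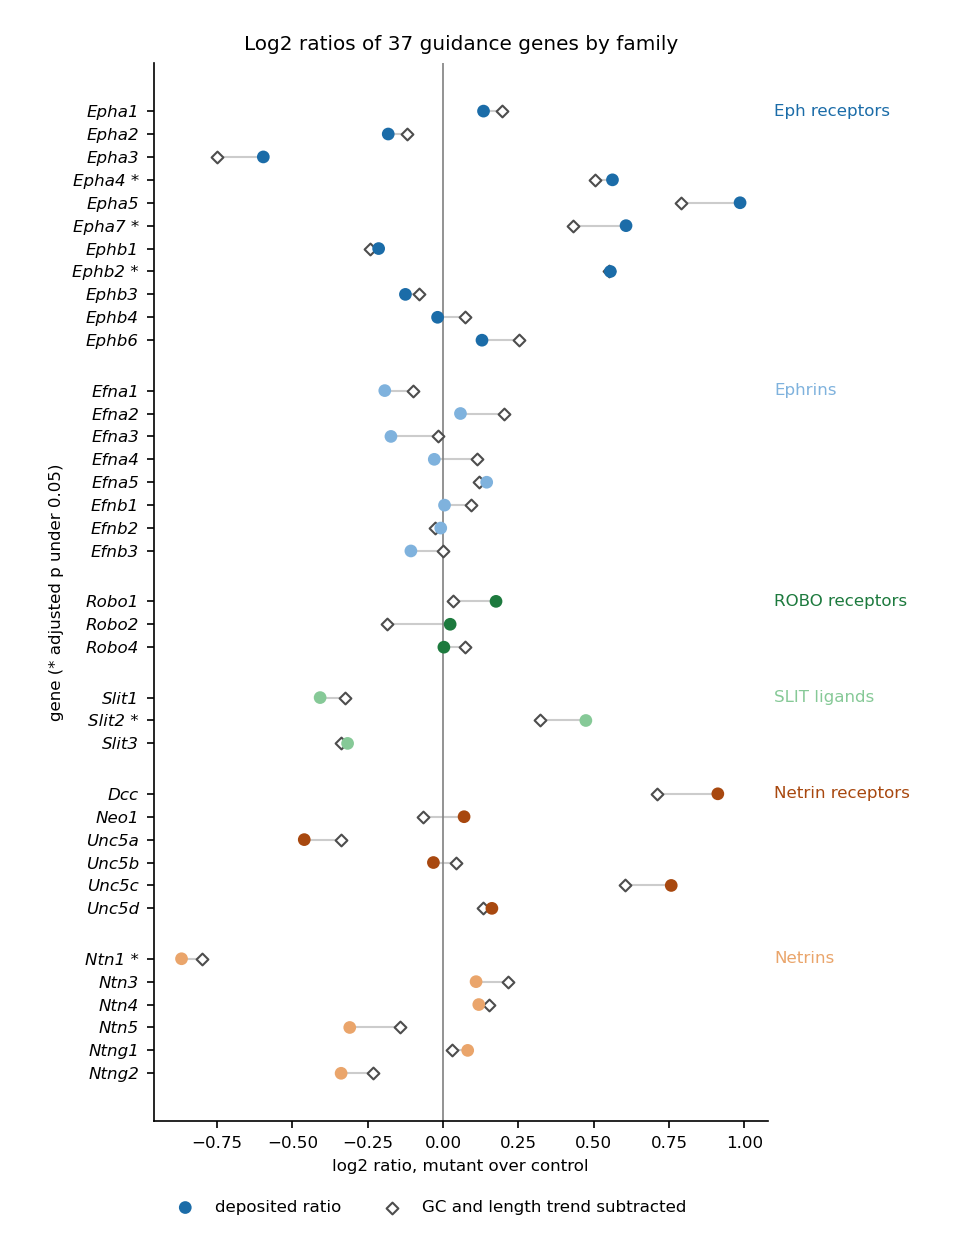
Log2 ratio of mutant over control for each guidance gene by family, as deposited (filled circles) and with the trend on transcript GC content and exonic length subtracted (open diamonds), with a star at genes past an adjusted p of 0.05 as deposited. Epha4, Epha7, Ephb2, Slit2 and Ntn1 keep their side of 0, while Robo2, Neo1, Unc5b, Ephb4, Efna4 and Efnb3 cross it.

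The log2 ratios of the whole table varied with transcript GC content. Median transcript GC was 44.7% for Epha7, 47.6% for Unc5c, 48.7% for Slit2 and 49.8% for Epha4, but 56.3% for Ephb2, and it was 58.0% for Ntn1. Of the 11 members under 50% GC, 10 had a higher mean in the mutant, the exception being Epha3, and of the 26 others 10 did. Among all genes whose higher mean was at least 1, 68.1% of those under 50% GC and 36.3% of the rest had a higher mean in the mutant. Across the 37 genes the log2 ratio and GC content had a Pearson r of -0.52 and a Spearman rho of -0.53, a description of genes that share the same 8 libraries. The trend on GC content and length was fitted separately for the log2 ratio and for the authors' p-values, the p-values being turned into signed z scores. The first fit, over 13128 protein-coding genes, gives the log2 ratio of a gene with the same GC content and length. It was 0.18 for Epha7, 0.15 for Slit2, 0.15 for Unc5c, 0.06 for Epha4, 0.0035 for Ephb2 and -0.07 for Ntn1.

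The second fit, of the signed z scores of 17562 genes, gave new p-values. With it subtracted, no guidance gene passed an adjusted p of 0.05, and 11 of the 17562 genes did (0.0626%). As deposited, 139 of 17631 genes had passed. The authors' unadjusted p and the p recomputed from it were 0.000202 and 0.000257 for Ephb2, and 9.84e-05 and 0.000409 for Epha4. They were 0.000254 and 0.00124 for Ntn1, 0.00022 and 0.00823 for Epha7, and 0.000384 and 0.0089 for Slit2. The log2 ratio less its own trend, beside the adjusted p recomputed from the authors' p-values, was 0.55 for Ephb2 (adjusted p = 0.0955), 0.50 for Epha4 (adjusted p = 0.109) and -0.80 for Ntn1 (adjusted p = 0.156). The same pair of values, again with the p from the authors' p-values, was 0.43 for Epha7 (adjusted p = 0.244), 0.32 for Slit2 (adjusted p = 0.250) and 0.60 for Unc5c (adjusted p = 0.276). The lowest adjusted p of any member then belonged to Epha3, whose transcripts have 45.4% GC and whose log2 ratio became -0.75 (adjusted p = 0.0613, again from the authors' p-values). An unadjusted p under 0.05 was left for 8 of the 37 genes (21.6%), against 13.0% of all genes. These were Epha3, Epha4, Epha7, Ephb2, Slit2, Slit3, Unc5c and Ntn1. The part that the trend has in these results was not tested beyond this subtraction, which also removes any real change that follows GC content or length.

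**Figure D4:**
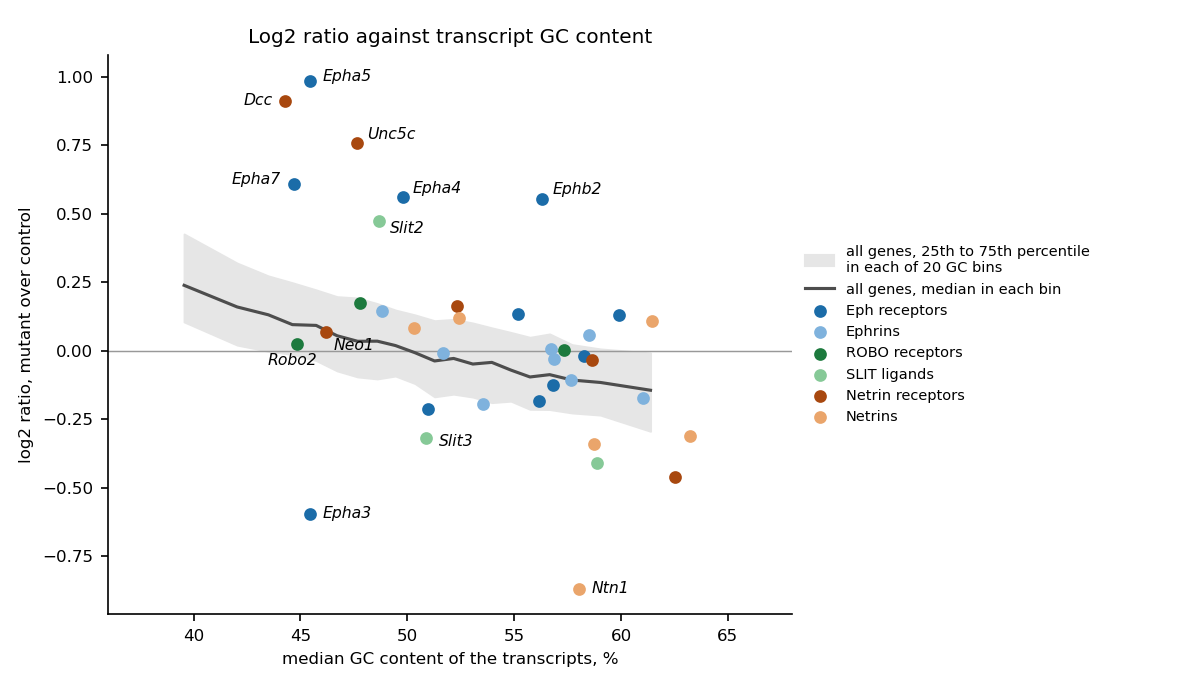
Log2 ratio of mutant over control against the median GC content of a gene's transcripts, for the 37 guidance genes by family, with the median (line) and the 25th to 75th percentile (band) of all genes at or above a floor of 1 on the higher mean, in 20 GC bins. The line falls with GC content. Epha4, Epha7, Slit2 and Unc5c lie above the band at the GC-poor side and Epha3 below it. At the GC-rich side Ephb2 lies above the band and Ntn1 below it.

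Of 72 other genes of these pathways that were measured, none passed in the authors' deposited table, against 0.788% of all genes. An unadjusted p under 0.05 was found for 17 of the 72 (23.6%), against 19.3% of all genes. Their median log2 ratio was 0.02. With the GC and length trend subtracted, an unadjusted p under 0.05, recomputed from the authors' p-values, was left for 11 of the 72 (15.3%), against 13.0% of all genes. By list these were 5 of 14 other ligands and co-receptors, 4 of 38 intracellular effectors and 2 of 20 genes of ephrin signalling. The counts and p-values that follow are as deposited. Among 14 other ligands and co-receptors, 4 had an unadjusted p under 0.05 with a higher mean and 1 with a lower mean, and the list's median log2 ratio was 0.15. The lowest p-values were those of Flrt3, a membrane protein that binds UNC5 receptors, with 61.7 in mutant molars and 47.6 in control molars (the authors' adjusted p = 0.0814), and of Lrrc4c, the partner of netrin-G1, with 5.30 in mutant molars and 3.88 in control molars (the authors' adjusted p = 0.102). Among 38 intracellular effectors, 3 had an unadjusted p under 0.05 in each direction and the median was -0.0019. Ngef, which encodes the exchange factor ephexin-1 that EphA receptors activate, had 12.5 in mutant molars and 23.3 in control molars in the authors' deposited table (log2 ratio -0.90, the authors' adjusted p = 0.0634). Pak3, a kinase downstream of Rac and Cdc42, had 7.55 in mutant molars and 4.47 in control molars (the authors' adjusted p = 0.111). Among 20 proteases, phosphatases and adaptors of ephrin signalling, 5 had an unadjusted p under 0.05 with a higher mean and 1 with a lower mean. The adaptor genes Grb10 (179.5 in mutant molars and 142.9 in control molars, the authors' adjusted p = 0.0914) and Grb7 (3.44 in mutant molars and 4.88 in control molars, the authors' adjusted p = 0.114) had the lowest p-values there.

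Markers of other cell types moved in the same comparison, and their part in the guidance genes was not tested. Osteoblast markers summed to 3028 in mutant molars and 4581 in control molars, with all 8 lower and 2 called (Sp7 and Bglap). Erythroid markers summed to 425.8 in mutant molars and 946.5 in control molars, with all 7 lower and 1 called. Ameloblast markers summed to 178088 in mutant molars and 262615 in control molars, with 6 of 7 lower and none called. Of 8 pericyte and smooth muscle markers, Acta2 and Tagln were called lower while 5 had higher means, and the sums were 474.5 in mutant molars and 464.9 in control molars. Schwann cell and nerve markers, which bear on genes known from axons, summed to 49.95 in mutant molars and 51.9 in control molars, with 3 of 8 higher and none called. Dental epithelium markers summed to 2577 in mutant molars and 2560 in control molars, with 4 of 8 higher, odontoblast markers to 8836 in mutant molars and 9199 in control molars, with 1 of 6 higher, and macrophage markers to 419.3 in mutant molars and 358.2 in control molars, with 5 of 6 higher, and none of these 3 lists had a called gene. Skeletal muscle markers summed to 4.46 in mutant molars and 6.90 in control molars over 7 genes, of which 6 were lower and none was called. No marker of these lists is at 0 in either group.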

How the data were processed

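RNA from 4 mutant and 4 control samples was read as 2 x 50 nt pairs, per the series' design text. The submitters' processing notes name STAR 2.6.1d, Partek and mm10 but give them no role. What annotation, counting, normalisation, filter and model were used is not given in the sources used here. The deposited table compares KO with WT, per the file headers, taken as the mutant and control genotypes of the labels. It holds the authors' normalised signal as a mean per group, with no values per library. The deposited ratio is the mutant over the control mean for all 17631 genes (relative tolerance 1e-06). The deposited signed fold change, a score with no values between -1 and 1, was not used further. The authors' p-value and its Benjamini-Hochberg adjustment over all genes are the test used, at 0.05. A test on counts, the planned route for values per library, could not be made. Depth per library is unknown.

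GENCODE M21 (GRCm38) held the symbol of 17562 genes (99.6%). The trend of signed z (all genes with GC and length) and, separately, of the log2 ratio (protein-coding genes at or above the floor) on median transcript GC and log2 exonic length was fitted with smooth terms (mgcv 1.9.3, R 4.3.3), and the fit was tested on simulated data holding a known trend. It took 21.4% of the variance of z. Other settings were a floor of 1 on the higher mean, 1 added to both means, and 2 rescalings. The members and lists were chosen with earlier results of these data known. All members are named, with the lowest p-values of each list of other pathway genes. Promoters come from RefSeq (GRCm38.p6).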

Additional observations from a re-analysis of the deposited data

How the results depend on the processing

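The counts of called members, 4 higher and 1 lower, were 0 and 0 with the GC and length trend subtracted (8 members at an unadjusted p under 0.05), and Gli1 lost its call there too at a log2 ratio of -0.89, against -0.96 as deposited (adjusted p = 0.0561 from the authors' p-values). The authors' values per library, and so depth and its limits, are unknown. Under an adjusted p of 0.1 the members called lower were 3. Of the 72 other pathway genes, 2 were called higher and 1 lower there, against 0 and 0 at 0.05. Of all genes, 3.64% were called under 0.1 and 0.788% under 0.05. With the floor of 1 and a new adjustment 5 members were called higher and 1 lower. Equal sums moved the family medians, by construction, to 0.27 for Eph receptors, 0.12 for ephrins, 0.16 for ROBO receptors, -0.18 for SLITs, 0.25 for netrin receptors, 0.023 for netrins, 0.24 for all receptors and 0.11 for all ligands. The SLIT median was -0.13 with 1 added to both means and 0.079 over members with a higher mean of at least 1, which leaves out Slit1. Other family medians moved by less than 0.1, though the trend subtraction turned those of ephrins (0.047) and all ligands (0.00058) positive. Equal sums turned Ephb3 (0.013), Ephb4 (0.12), Efna4 (0.11), Efnb2 (0.13), Efnb3 (0.031) and Unc5b (0.11), again by construction. The trend subtraction turned Ephb4 (0.073), Efna4 (0.11), Efnb3 (0.00058), Robo2 (-0.19), Neo1 (-0.067) and Unc5b (0.044), and centring all genes at a median of 0 turned Robo4 (-0.00056). None of these genes was called. No paired analysis was possible because the table holds no values per library, and leaving out single libraries was not run for the same reason.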
